A study of Mus musculus with 3 samples.

Results

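Transcripts for the nuclear-encoded subunits of the respiratory chain and of ATP synthase were followed in LNC, a malignant B-1 cell line that came from an NZB (New Zealand Black) mouse, 1 year old, and its lymph node. The 3 groups were cells given an IL-10 antisense oligonucleotide at 20 µM, cells given 20 µM of a scrambled oligonucleotide, which controls for effects that any oligonucleotide has, and untreated cells. All groups share the same line, which is 1 model of malignant B-1 cells, RNA was collected at 24 h, and each group is 1 array. Members were taken by name: a probe set with 1 annotated gene symbol that begins Nduf, Sdha to Sdhd, Uqcr, Cox4 to Cox8 or Atp5, or that is Cyc1 or Cycs. This gave 97 probe sets of 75 genes among the 12588 probe sets that are not array controls, where those with 1 symbol stand for 8220 genes. By complex these were 38 probe sets of complex I, 4 of complex II, 8 of complex III, 1 of cytochrome c, 20 of complex IV and 20 of complex V, which is ATP synthase. A further 6 probe sets are of assembly factors whose names share these beginnings (Ndufaf1, Ndufaf4, Sdhaf1 and Sdhaf2). Another 8 probe sets list several symbols, among them those of Cox7c, Ndufs5, Ndufs6, Ndufb4 and Ndufa11, and were left out. The core genes Ndufs7, Ndufs8, Uqcrfs1, Cox5a and Atp5b had no member probe set. The labels do not say whether the arrays came from separate cultures.

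The respiratory chain sits in the inner mitochondrial membrane and passes electrons from NADH (complex I) and succinate (complex II) through coenzyme Q to complex III, then by cytochrome c to complex IV, where oxygen is reduced. Complexes I, III and IV pump protons, and ATP synthase lets the protons flow back and makes ATP. Most subunits are encoded in the nucleus and must be made in step with the few that mitochondrial DNA encodes. The factors Nrf1, Gabp (also called NRF-2), Yy1 and Esrra are known to bind promoters of many of these nuclear genes. Activated and malignant B cells use both this pathway and glycolysis.

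Promoters are shown because shared promoter elements are what these scattered genes are best known to have in common. RefSeq promoter windows (GRCm38.p6) run from 250 bases before a gene's start to 50 bases after it, 300 in all, and 65 windows matched 60 of the 75 genes. Each of 8 motifs was searched on both strands. For Nrf1, CGCANGCGC was in 32.3% of member windows, against 11.1% of the 8359 windows of genes on the array and 6.31% of all 32851 windows. For Gabp and other Ets factors, CCGGAAG was in 27.7% of member windows, against 14.4% of array genes and 8.86% of all. The Yy1 letters AAGATGG were in 12.3% against 6.44% and 6.34%, and AAGGTCA for Esrra in 7.69% against 3.59% and 4.72%. In ratio, the shares lay nearer to those of array genes for GGGCGG of Sp1 (47.7% against 56.6%), CCAAT of NF-Y (41.5% against 37.1%), CACGTG of Myc and its relatives (9.23% against 9.57%) and TTCCNGGAA of Stat factors (1.54% against 1.05%). A match describes letters in a window and not binding. The Nrf1 letters nearly repeat on the opposite strand, so that overlapping matches 1 base apart mark the same place.

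The windows below show 1 gene for each of complexes I to V and cytochrome c, chosen for their motifs. Ndufb3 and Atp5pb follow, chosen from their values. They stood lowest on the scrambled array beyond the scatter yardstick described below and were not read by a family probe set. Capitals mark matches to the Nrf1, Gabp, Yy1, Esrra and Stat letters. The windows lie in GRCm38.p6 at chr2:36049289-36049588 (minus strand) for Ndufa8, chr9:50603800-50604099 (minus strand) for Sdhd, chr10:80406772-80407071 (minus strand) for Uqcr11, chr6:50566520-50566819 (minus strand) for Cycs, chr5:115348909-115349208 (minus strand) for Cox6a1, chr5:108434350-108434649 (minus strand) for Atp5k, chr1:58586147-58586446 (plus strand) for Ndufb3 and chr3:105959214-105959513 (minus strand) for Atp5pb, and each reads 5′ to 3′ on the gene's strand.
Ndufa8: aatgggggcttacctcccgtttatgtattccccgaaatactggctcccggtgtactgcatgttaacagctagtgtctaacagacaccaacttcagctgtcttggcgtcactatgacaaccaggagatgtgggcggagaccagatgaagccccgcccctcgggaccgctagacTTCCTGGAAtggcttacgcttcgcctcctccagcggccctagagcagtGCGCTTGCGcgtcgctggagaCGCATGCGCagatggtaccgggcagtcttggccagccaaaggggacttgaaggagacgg
Sdhd: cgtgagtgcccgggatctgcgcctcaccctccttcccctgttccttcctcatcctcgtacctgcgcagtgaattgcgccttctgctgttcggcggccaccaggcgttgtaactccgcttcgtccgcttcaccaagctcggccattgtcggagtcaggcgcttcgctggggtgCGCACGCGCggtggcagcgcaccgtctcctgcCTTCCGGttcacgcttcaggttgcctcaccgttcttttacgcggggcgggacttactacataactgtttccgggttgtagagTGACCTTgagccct
Uqcr11: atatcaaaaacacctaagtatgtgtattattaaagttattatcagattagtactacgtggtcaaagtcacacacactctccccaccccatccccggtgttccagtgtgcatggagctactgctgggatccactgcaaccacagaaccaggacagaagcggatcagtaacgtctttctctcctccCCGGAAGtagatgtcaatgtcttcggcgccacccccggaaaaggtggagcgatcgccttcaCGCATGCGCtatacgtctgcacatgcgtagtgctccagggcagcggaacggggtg
Cycs: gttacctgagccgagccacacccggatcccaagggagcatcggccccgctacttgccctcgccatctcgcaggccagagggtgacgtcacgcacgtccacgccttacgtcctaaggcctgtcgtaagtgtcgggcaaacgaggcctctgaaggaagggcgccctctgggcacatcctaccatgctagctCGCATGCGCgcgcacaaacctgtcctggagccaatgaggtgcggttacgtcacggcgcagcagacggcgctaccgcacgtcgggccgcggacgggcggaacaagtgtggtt
Cox6a1: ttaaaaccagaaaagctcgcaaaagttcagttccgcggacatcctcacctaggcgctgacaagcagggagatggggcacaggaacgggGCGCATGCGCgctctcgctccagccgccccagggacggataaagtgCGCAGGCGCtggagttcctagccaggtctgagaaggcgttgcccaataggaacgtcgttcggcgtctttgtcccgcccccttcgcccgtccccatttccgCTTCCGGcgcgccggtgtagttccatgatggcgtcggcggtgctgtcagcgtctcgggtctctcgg
Atp5k: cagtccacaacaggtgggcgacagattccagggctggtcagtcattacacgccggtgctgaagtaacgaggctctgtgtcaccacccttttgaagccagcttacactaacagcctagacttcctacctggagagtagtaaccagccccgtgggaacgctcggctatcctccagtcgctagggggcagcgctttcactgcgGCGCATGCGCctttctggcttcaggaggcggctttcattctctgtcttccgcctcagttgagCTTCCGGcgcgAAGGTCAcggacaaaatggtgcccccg
Ndufb3: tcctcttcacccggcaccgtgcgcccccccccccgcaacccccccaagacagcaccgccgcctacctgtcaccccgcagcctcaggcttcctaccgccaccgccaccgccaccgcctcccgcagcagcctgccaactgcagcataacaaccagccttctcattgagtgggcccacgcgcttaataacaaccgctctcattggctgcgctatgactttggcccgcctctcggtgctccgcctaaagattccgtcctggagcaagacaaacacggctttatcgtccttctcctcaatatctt
Atp5pb: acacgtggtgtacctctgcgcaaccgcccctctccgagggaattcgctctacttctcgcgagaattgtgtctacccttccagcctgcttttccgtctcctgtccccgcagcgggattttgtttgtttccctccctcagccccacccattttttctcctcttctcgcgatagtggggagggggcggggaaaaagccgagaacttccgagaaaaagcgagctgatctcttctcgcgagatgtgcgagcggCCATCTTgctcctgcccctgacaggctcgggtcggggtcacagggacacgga

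Ndufa8 held 2 Nrf1 matches and the only Stat match among member windows. In Sdhd, an Nrf1, a Gabp and an Esrra match stood in this order toward the gene body, and Atp5k held the same 3 kinds around its start. Uqcr11 and Cox6a1 paired Nrf1 with Gabp letters, and of the 5 marked motifs Cycs had Nrf1 alone. Ndufb3 held none of the 5 marked motifs in this window, and Atp5pb held a Yy1 match across its start. By complex, the Nrf1 letters were in 6 of 28 windows of complex I, 2 of 3 of complex II, 3 of 4 of complex III, 1 of 10 of complex IV and 7 of 15 of complex V. Among member probe sets past the noise floor, the 20 whose genes had an Nrf1 match had a median log2 difference of -0.04 on the array labelled antisense against untreated and the 38 without one had 0.06. Against scrambled these medians were 0.01 and 0.11. For the Gabp letters the medians against untreated were 0.09 with a match and -0.04 without, and against scrambled 0.12 and 0.05.

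**Figure D1:**
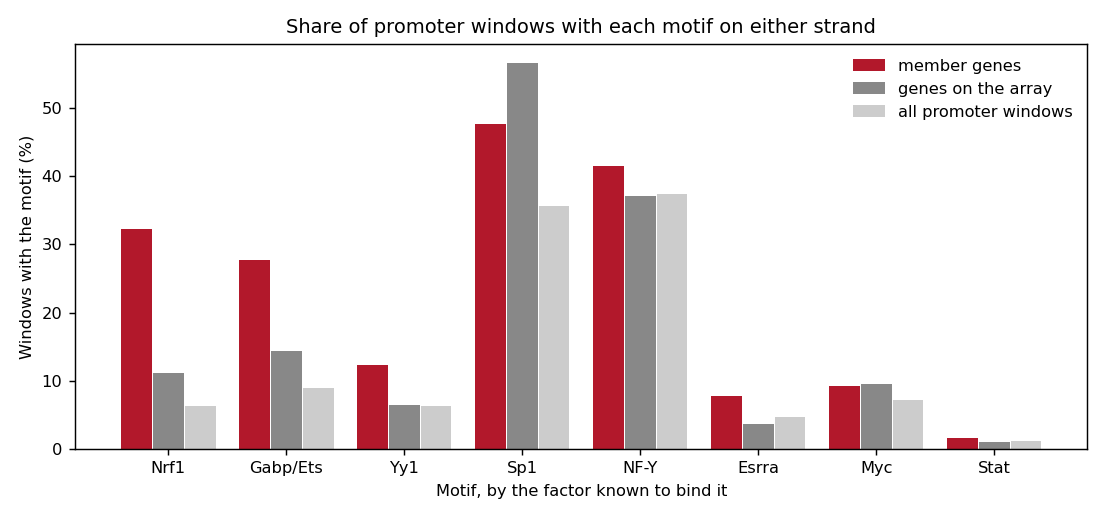
Bars give the share of 300-base promoter windows (%) that hold each motif on either strand, for member genes (red), genes on the array (grey) and all windows (light grey), with motifs named by the factor known to bind them. The Nrf1 and Gabp bars of member genes, at 32.3% and 27.7%, stand above the 11.1% and 14.4% of genes on the array.

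The values are probe set intensities on a linear scale, scaled by the authors and again here to a common trimmed mean of each array. Levels of different probe sets cannot be compared with each other, so each is compared across the arrays. A noise floor of 595.9 was set from the values below 0, and values below it were raised to it before log2 was taken. Above the floor were 42.1% of all probe sets for antisense, 42.6% for scrambled and 42.0% for untreated. With 1 array per group no replicate exists, and hence no test and no p-value. As a yardstick of scatter, the 95th percentile of the absolute scrambled minus untreated difference was taken among the 300 probe sets of closest level. This came to 2.28-fold where intensity was 1000, to 1.43-fold for 5000 and to 1.26-fold for 20000. It holds any effect of the scrambled oligonucleotide. Since it was taken from the scrambled and untreated arrays, the share of all probe sets beyond it in that comparison, 4.02%, was nearly fixed in advance. To lie beyond it there marks the larger differences and does not set an effect apart from scatter. Near the floor the yardstick is small because values raised to the floor cannot differ, and little can be read from it there. Probe sets whose names carry a suffix such as _s, _f, _i, _r or _g, 35 of the 97, can bind several related transcripts and are called family probe sets here. Of the members described below as beyond the yardstick, these read Ndufa5, Ndufa4l2, Sdhaf1, Cox6c, Atp5e, Atp5g2 and Atp5l.

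Il10, the targeted gene, read 13946 on the array labelled antisense, against 5616 with the scrambled oligonucleotide and 5164 in untreated cells. Its RNA was thus not lower there, and every direction below that involves this array rests on its label. Leaving out the brightest, 6 bacterial spike-in controls were lower on it by a mean log2 of 0.63 against untreated and 0.51 against scrambled. Scaled to these controls, the median of all probe sets would shift by 0.57 for the array labelled antisense against untreated, 0.46 against scrambled and 0.08 between scrambled and untreated, and 68 members would be highest on it. The complex medians given below as negative for this array, those of complex V against untreated and complex III against scrambled, would then be positive, as would the difference of Ndufa5. For scrambled against untreated, the medians of complexes I and II would become 0.07 and 0.05, and that of complex V -0.05. All differences below are therefore relative to the common level of the arrays. The 3-prime over 5-prime signal of 18S ribosomal RNA was 8.13 on the array labelled antisense, 4.48 with the scrambled oligonucleotide and 1.72 in untreated cells, and its part in the results was not tested. The same ratio lay between 0.92 and 0.992 for actin and between 0.931 and 1.007 for Gapdh over the 3 arrays. Of the B cell markers 6 of 8 measured were above the floor on the 3 arrays, and Cd5, a marker of many B-1 cells, and Cd22 were at or below it on all. Their summed intensity was 271287 on the array labelled antisense, 362426 with the scrambled oligonucleotide and 318907 in untreated cells. Of these 6 B cell markers, 3 were beyond the scatter yardstick against untreated and 4 against scrambled, all lower on the array labelled antisense. Of all probe sets past the filter, 8.94% and 11.1% were beyond it in these comparisons. Above the floor on the 3 arrays were 1 of 6 T cell markers, 2 of 6 myeloid, 1 of 5 fibroblast, 1 of 4 muscle and 0 of 2 erythroid markers. Their summed intensities on the arrays labelled antisense, scrambled and untreated were 1816, 2886 and 1507 for T cell, 2481, 3131 and 4111 for myeloid, 2097, 1161 and 1427 for fibroblast, 6116, 11065 and 13417 for muscle and 2233, 764 and 1628 for erythroid markers. Hba-a1, an erythroid globin, read 2233 (antisense), against 560 (scrambled, below the floor) and 1628 (untreated), so it too was lowest on the scrambled array, and its part in the low scrambled values below was not tested. Actc1, an actin read by a family probe set, had a log2 difference of -1.26 for antisense against untreated and -1.01 for antisense against scrambled. The T cell genes Cd3e, Cd3d and Cd3g and the myeloid genes Lyz2 and Itgam did not exceed the floor on any array. A lower value can come from less RNA per cell or from fewer cells that hold it, and these cannot be told apart.

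Most of the chain was readily measured. Of the 97 member probe sets 65 were above the floor on the 3 arrays, 7 on some of them and 25 on none, so that 72 probe sets of 66 genes passed the filter. All 8 of complex III passed on the 3 arrays, as did 26 of 38 of complex I, 3 of 4 of complex II, 9 of 20 of complex IV and 14 of 20 of complex V. The 9 genes with no probe set above the floor were Sdha, Ndufs4, Ndufa1, Ndufa12, Ndufc2, Cox8a, Cox6a2, Cox7a1 and Cox8b. The last 3 encode isoforms known from heart and skeletal muscle, and their values lay between -854 for Cox6a2 and 505.5 for Cox7a1, both on the untreated array. The relatives that most tissues use were bright for Cox6a1, at 44580 on the array labelled antisense, 41507 with the scrambled oligonucleotide and 40955 in untreated cells, and for Cox7a2. Cox8a is used widely and also read only 16.5 (antisense), 304 (scrambled) and 142 (untreated). Sdha, which carries the flavin of complex II, read 297 (antisense), 468 (scrambled) and 438 (untreated). Other subunits of these complexes were bright, and this array's first version is known to hold probe sets built on faulty sequence, so a value at the floor does not show that a gene is silent. Probe sets of the same gene could likewise fail: 1 of 2 of Cox4i1, Cox6c, Atp5g2, Ndufb6, Ndufa4l2, Ndufaf1 and Ndufaf4, 1 of 4 of Ndufb2, 2 of 3 of Cox6b2 and 3 of 4 of Atp5d did not exceed the floor on any array.

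**Figure D2:**
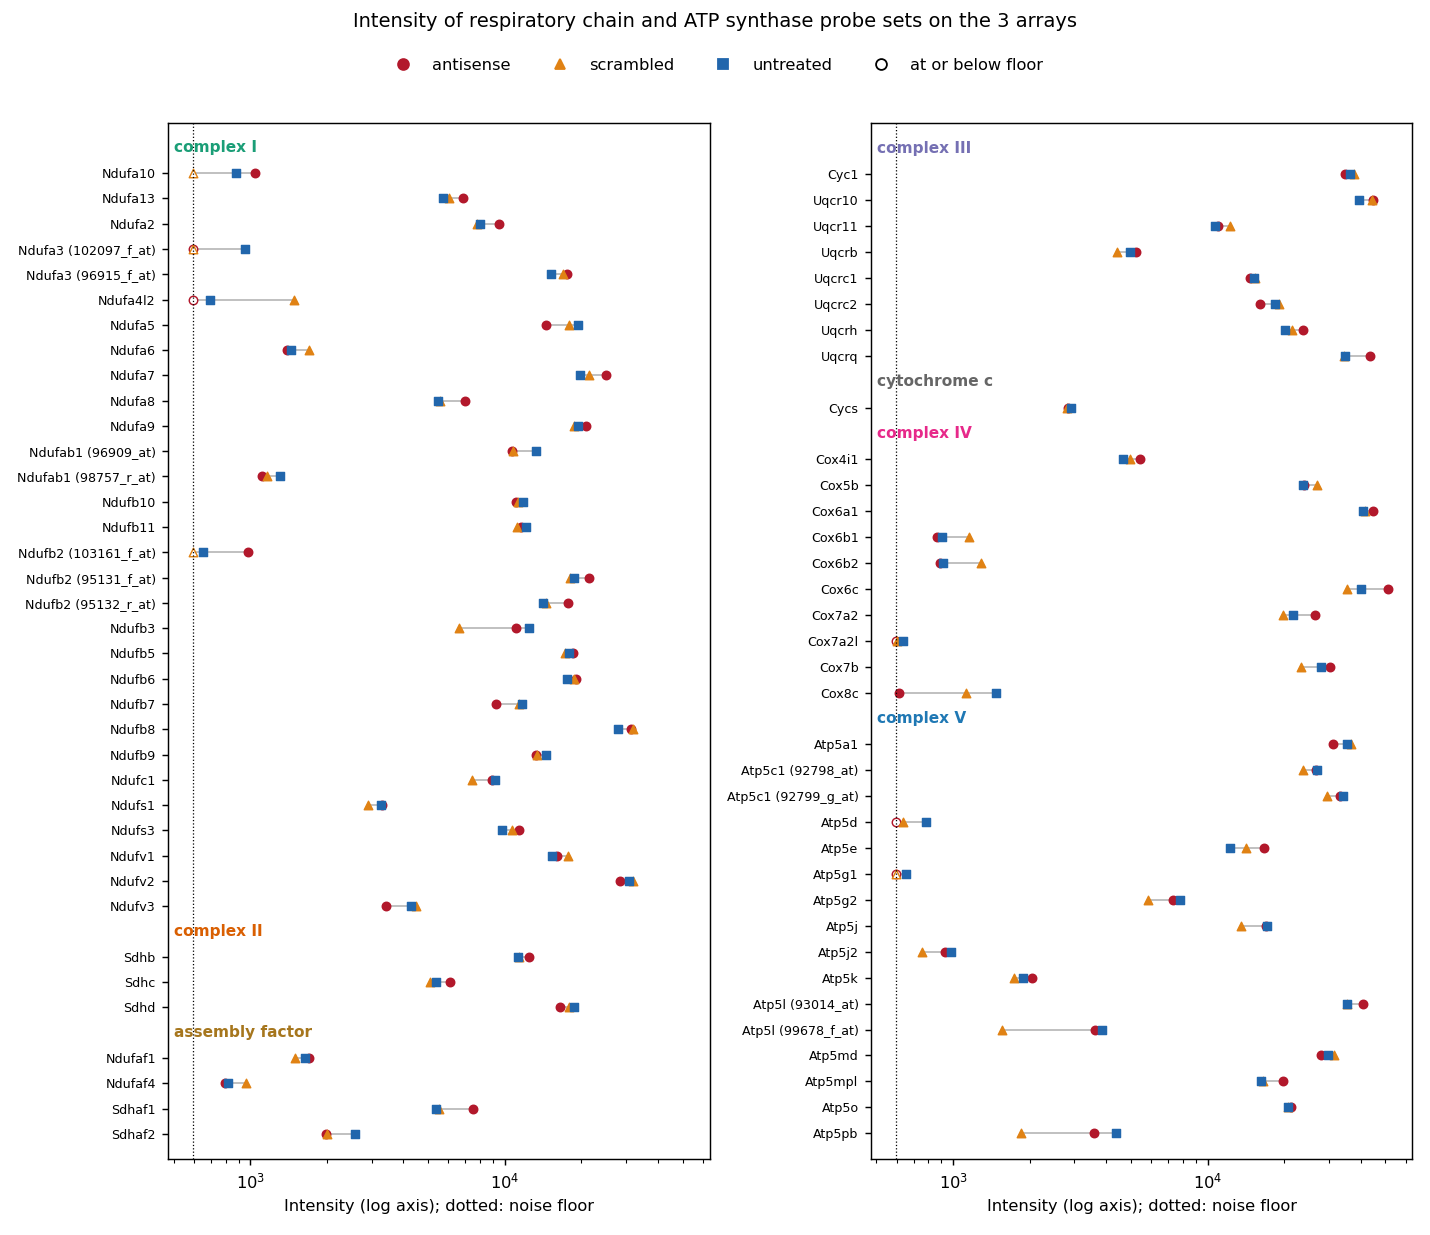
Each line is 1 of the 72 member probe sets past the filter, with its intensity (log axis) on the array labelled antisense (circle), the scrambled (triangle) and the untreated array (square). Open symbols at the dotted line, 595.9, are values at or below the noise floor. For most members the symbols nearly overlap, while Ndufb3, Atp5pb and 1 probe set of Atp5l have the scrambled array apart at the low end.

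The chain as a whole differed little between the arrays. The median log2 difference of the 72 members past the filter was 0.01 for the array labelled antisense against untreated, 0.10 against scrambled, and -0.05 for scrambled against untreated, where the median of all 6127 probe sets past the filter was 0.00 in each. At least 2-fold apart were 1 of 72 members (1.39%) on the array labelled antisense against untreated, beside 4.85% of all probe sets. Against scrambled there were 2, beside 6.02% of all, and between scrambled and untreated 3, beside 3.1%. Members are brighter than most probe sets, and bright probe sets scatter less. At 1.5-fold, 1 member was higher and 2 were lower on the array labelled antisense against untreated, beside 9.65% and 7.98% of all probe sets. Against scrambled 5 were higher and 2 lower, beside 10.3% and 9.78%. On the scrambled against the untreated array 1 was higher and 4 were lower, beside 6.76% and 6.1%. Measured against the yardstick, which follows the level, 5 members (6.94%) differed on the array labelled antisense from untreated, beside 8.94% of all probe sets. From scrambled 8 members (11.1%) did, beside 11.1% of all. Between scrambled and untreated 4 did (5.56%), beside 4.02%, a share that the making of the yardstick nearly fixed in advance. The array labelled antisense was the highest of the 3 for 32 members (44.4%), beside 37.2% of all probe sets, and the lowest for 23 (31.9%), beside 32% of all. With arrays scaled to the median of values above the floor, these counts were 27 and 28. The scrambled array was the highest for 16 (22.2%), beside 34% of all, and the lowest for 27 (37.5%), beside 27.2% of all. These shares are a description: both comparisons of the array labelled antisense share that array, and both comparisons with untreated share the untreated array.

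Members were also set beside probe sets of like level. Among the 18 members with a mean intensity from 20000 to under 50000, the median was 0.12 on the array labelled antisense against untreated and 0.13 against scrambled, where the 159 probe sets of that range had -0.04 and -0.05. From 5000 to under 10000, 8 members had 0.22 and 0.30, where all 681 had -0.01 and 0.01. From 10000 to under 20000, the 22 members had 0.04 and 0.04 where all 326 had 0.01 and -0.01. From 1000 to under 5000, the 14 members had -0.04 and 0.07, where all 2871 had 0.02 and 0.01. For scrambled against untreated, the members' medians by rising level were -0.15, -0.05, -0.02 and 0.03. All probe sets of these ranges had -0.003, -0.005, 0.03 and 0.06.

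**Figure D3:**
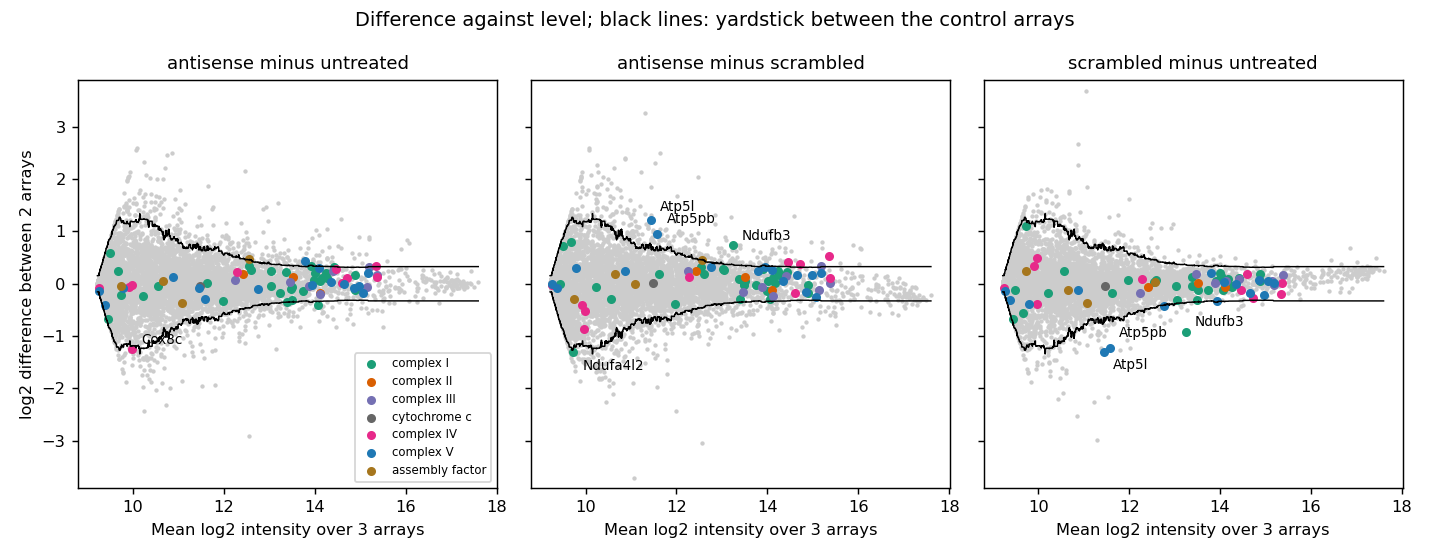
Points are probe sets past the filter, grey for all 6127 and coloured by complex for members, with the log2 difference between 2 arrays (vertical) against the mean log2 intensity (horizontal). Black lines are the yardstick, and gene names mark members that are beyond it and at least 1.5-fold apart. Atp5l, Atp5pb and Ndufb3 lie below the lines on the scrambled array against untreated, at -1.31, -1.23 and -0.92.

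Between the complexes, ATP synthase had the lowest median on the scrambled array against untreated, and the other complexes lay closer to 0. With scaling to spike-in controls complex V was still the lowest, at -0.05, but complexes I and III, at 0.07 and 0.17, lay further from 0. The median difference on the array labelled antisense against untreated was 0.03 for complex I, 0.14 for complex II, 0.05 for complex III, 0.07 for complex IV and -0.06 for complex V. Against scrambled these medians were 0.05, 0.13, -0.02, 0.04 and 0.22. For scrambled against untreated they were -0.05, -0.07, 0.05, -0.03 and -0.15. Of the 16 passing probe sets of ATP synthase, the array labelled antisense had 12 higher than scrambled had, beside 2947 of all 6127, and 11 were lower on scrambled than on untreated, beside 2764 of 6127. The scrambled array was the lowest of the 3 for 9 of these 16, for 10 of 30 of complex I, 1 of 3 of complex II, 2 of 8 of complex III and 3 of 10 of complex IV. Over all probe sets past the filter, this share was 27.2%. No test of a difference between complexes can be had with 1 array per group.

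**Figure D4:**
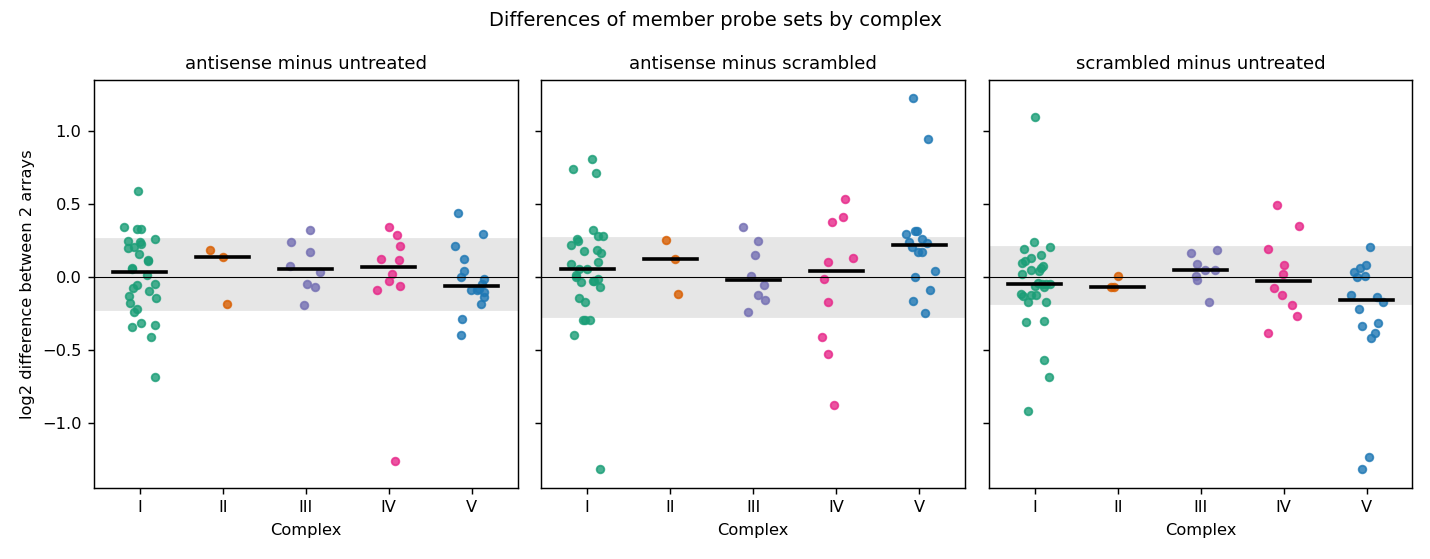
Points are the member probe sets past the filter of complexes I to V, with the log2 difference between 2 arrays on the vertical axis, and black bars are medians. Grey bands run from the lower to the upper quartile of all 6127 probe sets. The bar of complex V stands at 0.22 for antisense minus scrambled and at -0.15 for scrambled minus untreated, and the other bars lie closer to 0.

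Complex I was described by its core subunits first. Ndufv1, which binds NADH and the flavin, read 16015 on the array labelled antisense, against 17652 with the scrambled oligonucleotide and 15309 in untreated cells. Ndufv2, an iron-sulfur subunit beside it, read 28264 (antisense), against 31835 (scrambled) and 30838 (untreated). Ndufs1, the largest iron-sulfur subunit, read 3296 (antisense), against 2910.3 (scrambled) and 3268 (untreated), and Ndufs3, a core subunit near the coenzyme Q site, read 11407 (antisense), against 10689.9 (scrambled) and 9763.5 (untreated). No core subunit was apart beyond the yardstick, and their median difference was 0.04 against untreated and -0.02 against scrambled. The accessory subunits, which surround the core, were taken by name, with Ndufa4l2 among them. They gave 26 probe sets of 22 genes with a median of 0.00 against untreated. Their range of -0.68 to 0.59 ended in dim probe sets of Ndufa3 and Ndufb2. Over those above the floor on the 3 arrays, it ran from -0.41 for Ndufa5 to 0.35 for Ndufa8.

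Ndufb3, an accessory subunit of the membrane arm, was the complex I member most clearly set apart on the scrambled array. It read 11037 on the array labelled antisense, against 6614 with the scrambled oligonucleotide and 12478 in untreated cells. The log2 difference was 0.74 for the array labelled antisense against scrambled and -0.92 for scrambled against untreated, beyond the yardstick of 0.37, and -0.18 for antisense against untreated, within it. The array labelled antisense and the untreated array were thus near each other and the scrambled array was low. Ndufa5, an accessory subunit next to the coenzyme Q site, read 14578 (antisense), against 17854 (scrambled) and 19331 (untreated), lowest on the array labelled antisense. Its difference of -0.41 against untreated was beyond the yardstick of 0.33, and -0.29 against scrambled was within it. With scaling to spike-in controls these were 0.22 and 0.22. Ndufb7 had differences of -0.34 from untreated and -0.29 from scrambled, and Ndufv3 of -0.33 and -0.39, all within their yardsticks.

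Other accessory subunits of complex I read highest on the array labelled antisense. Ndufa8 read 6972, against 5583 with the scrambled oligonucleotide and 5487 in untreated cells, a log2 difference of 0.32 and 0.35 from them. Ndufa7 read 24911 (antisense), against 21417 (scrambled) and 19827.5 (untreated), which is 0.33 against untreated, just within the yardstick. Ndufb2 was read by 2 bright probe sets, at 21489 and 17754.5 on the array labelled antisense, against 18092 and 14591 on the scrambled and 18688 and 14099 on the untreated array. The bright pair thus had the same order of antisense above both controls, with differences of 0.20 and 0.33 against untreated. Another, dim probe set of Ndufb2 read 977 (antisense), against 553 (scrambled) and 651 (untreated), the scrambled value below the floor. Ndufa2 differed by 0.25 and Ndufa13 by 0.26 against untreated, Ndufa9, which lies near the coenzyme Q site, by 0.11, and each was highest on the array labelled antisense. Ndufab1, the mitochondrial acyl carrier protein, went the other way in both its probe sets, by -0.31 and -0.23 against untreated and by -0.01 and -0.06 against scrambled. All of these lie within the yardstick.

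Among members at the edge of detection that were counted with complex I by name, Ndufa4l2 was high on the scrambled array. Its place there rests on its symbol alone. This gene encodes a relative of Ndufa4 known to be induced by hypoxia. Its better probe set read 581 on the array labelled antisense, below the floor, against 1480 with the scrambled oligonucleotide and 692 in untreated cells. That made the scrambled array at least 2.48-fold higher than the array labelled antisense and 2.14-fold higher than untreated. The first was beyond the yardstick of 2.37-fold and the second within it. Its other probe set read 416 (antisense), 27.3 (scrambled) and -0.7 (untreated), all below the floor. Ndufa10 read 1042 (antisense), against 481 (scrambled, below the floor) and 881 (untreated), and a dim probe set of Ndufa3 read 593 (antisense), 89.9 (scrambled) and 956 (untreated), of which only untreated lies above the floor. The bright probe set of Ndufa3 read 17555 (antisense), against 16911.5 (scrambled) and 15205 (untreated), so the dim one did not show the same order.

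Complex II, which links the citric acid cycle to the chain, had no member apart beyond the yardstick. Sdhb, the iron-sulfur subunit, read 12422 on the array labelled antisense, against 11375 with the scrambled oligonucleotide and 11287 in untreated cells. Of the membrane anchors, Sdhc read 6087 (antisense), against 5107 (scrambled) and 5348 (untreated), and Sdhd read 16480.4 (antisense), against 17861 (scrambled) and 18711.5 (untreated). Sdhb and Sdhc were highest and Sdhd was lowest on the array labelled antisense. Sdhaf1, an assembly factor that helps to place iron-sulfur clusters in Sdhb, read 7488 (antisense), against 5495 (scrambled) and 5371 (untreated). Its difference of 0.48 against untreated was slightly beyond the yardstick of 0.46, and 0.45 against scrambled was within it. It was read by a family probe set. Sdhaf2, which helps to attach the flavin to Sdha, read 1985 (antisense), against 2003.5 (scrambled) and 2569 (untreated), and Ndufaf1 and Ndufaf4, complex I assembly factors, differed by 0.06 and -0.04 against untreated.

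In complex III, Uqcrq was the only member beyond the yardstick. This small subunit read 43514 on the array labelled antisense, against 34309 with the scrambled oligonucleotide and 34824 in untreated cells. Its difference of 0.34 against scrambled was beyond the yardstick of 0.33, and 0.32 against untreated was just within it. Uqcrh, the hinge subunit beside cytochrome c1, read 23801 (antisense), against 21470.3 (scrambled) and 20149 (untreated). Uqcr10 read 44517 (antisense), against 44164 (scrambled) and 39416.5 (untreated), and Uqcrb read 5243 (antisense), against 4422 (scrambled) and 4973 (untreated). Uqcr11 read 10950.8 (antisense), between scrambled at 12201 and untreated at 10702. Uqcrc2, a large subunit on the matrix side, read 16128 (antisense), against 19019 (scrambled) and 18397 (untreated), and Uqcrc1, its partner, read 14721 (antisense), against 15307 (scrambled) and 15183 (untreated). Cyc1, cytochrome c1, which hands electrons to cytochrome c, read 34652 (antisense), against 37614 (scrambled) and 36303 (untreated). The median was 0.18 against untreated for the 5 small subunits and -0.07 for Cyc1, Uqcrc1 and Uqcrc2, a grouping made after the values were seen, and each of these differences lay within its yardstick. Cycs, cytochrome c itself, read 2823 (antisense), against 2806 (scrambled) and 2897 (untreated), level on the 3 arrays.

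Complex IV held the brightest member that differed. Cox6c, a small membrane subunit, read 51126 on the array labelled antisense, against 35336 with the scrambled oligonucleotide and 40231 in untreated cells. The log2 difference was 0.53 against scrambled and 0.35 against untreated, both beyond the yardstick of 0.33, and it was read by a family probe set. Cox7a2 read 26463 (antisense), against 19853 (scrambled) and 21649.5 (untreated), with differences of 0.41, beyond the yardstick, and 0.29, within it. Cox7b read 30185 (antisense), against 23221 (scrambled) and 27861 (untreated), with 0.38, beyond, and 0.12, within. Cox6c, Cox7a2 and Cox7b shared an order of antisense highest and scrambled lowest. In part this follows from their choice, as each was beyond the yardstick for antisense above scrambled. Other small subunits did not share it: scrambled was highest for Cox5b and Cox6b1 and between the other arrays for Cox6a1 and Cox4i1. Cox6a1 differed by 0.12 against untreated and 0.10 against scrambled. Cox4i1, which is known for control of the complex by ATP, read 5405 (antisense) in its probe set above the floor, against 4937 (scrambled) and 4652 (untreated). Cox5b, which binds zinc, read 24018 (antisense), against 27013 (scrambled) and 23643 (untreated), highest on the scrambled array. Cox6b1, on the outer face, read 865 (antisense), against 1150.2 (scrambled) and 904 (untreated), and differences at this level lie far within the yardstick.

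Cox8c, an isoform known from testis, was the only member at least 2-fold apart between the array labelled antisense and untreated. It read 615.5 on the array labelled antisense, little above the floor, against 1126 with the scrambled oligonucleotide and 1470.4 in untreated cells. The log2 difference was -1.26 against untreated, slightly beyond the yardstick of 1.19, and -0.87 against scrambled, within it. With a floor of 3 robust standard deviations, the first becomes -0.72, under 2-fold. Cox6b2, also known from testis, read 892 (antisense), against 1282 (scrambled) and 909 (untreated), in its only probe set above the floor. Cox7a2l, which helps complexes III and IV join, read 486 (antisense, below the floor), against 602 (scrambled) and 634 (untreated).

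ATP synthase was described from its catalytic head to its membrane part. Atp5a1, the alpha subunit of the head, read 30985 on the array labelled antisense, against 36781 with the scrambled oligonucleotide and 35244 in untreated cells, a difference of -0.25 and -0.19. Atp5c1, the gamma subunit that turns inside the head, had 2 probe sets in step, at 26793 and 33106 on the array labelled antisense, against 23812 and 29379 on the scrambled and 26827 and 34107 on the untreated array. Both thus had scrambled lowest, by -0.17 and -0.22 against untreated. Atp5e, the epsilon subunit, read 16601.5 (antisense), against 14099 (scrambled) and 12246 (untreated). Its difference of 0.44 against untreated was beyond the yardstick of 0.33, and 0.24 against scrambled was within it. Atp5d, the delta subunit, read 490.3 (antisense, below the floor), against 633 (scrambled) and 785 (untreated) in its best probe set.

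A low value on the scrambled array was found for Atp5pb, subunit b of the peripheral stalk, which holds the head still. It read 3572 on the array labelled antisense, against 1852 with the scrambled oligonucleotide and 4352 in untreated cells. The log2 difference was 0.95 for antisense against scrambled and -1.23 for scrambled against untreated, beyond the yardstick of 0.63, and -0.28 for antisense against untreated, within it. Atp5j, another part of the stalk, read 16897 (antisense), against 13544 (scrambled) and 17069.8 (untreated), so that scrambled was again lowest, by -0.33 against untreated, just within the yardstick of 0.35. Atp5o, which joins the stalk to the head, read 21364 (antisense), against 20714 (scrambled) and 20742 (untreated), level on the 3 arrays. Of the 3 stalk subunits, Atp5o thus did not share the low scrambled value. Atp5g2, which encodes the subunit c of the turning ring, read 7305 (antisense), against 5855 (scrambled) and 7820.2 (untreated), and its difference of -0.42 for scrambled against untreated was slightly beyond the yardstick of 0.41. Atp5g1, a second gene for the same subunit, lay above the floor only on the untreated array, at 654.

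Of the small membrane subunits, Atp5l (subunit g) had 2 probe sets that differed. A family probe set of Atp5l read 3624 on the array labelled antisense, against 1551.5 with the scrambled oligonucleotide and 3855.5 in untreated cells. Its differences of 1.22 for antisense against scrambled and -1.31 for scrambled against untreated were beyond the yardstick of 0.65. The brighter probe set of Atp5l read 40826 (antisense), against 35390.0 (scrambled) and 35189.7 (untreated), a difference of 0.01 between scrambled and untreated. The low scrambled value of Atp5l therefore stands in 1 of its 2 probe sets. Atp5mpl read 19862 (antisense), against 16541 (scrambled) and 16164 (untreated), highest on the array labelled antisense by 0.30 against untreated, and Atp5md read 28029 (antisense), against 31323.5 (scrambled) and 29626 (untreated). Atp5k, subunit e, and Atp5j2, subunit f, differed by 0.12 and -0.09 against untreated, far within the yardstick at their levels.

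Other genes that serve the chain were taken from lists made by function, each gene by its brightest probe set. Of 33 genes for assembly of the complexes 15 were measured and 14 passed the filter. Their median difference was 0.19 on the array labelled antisense against untreated and 0.03 against scrambled. At least 1.5-fold apart against untreated were 1 higher and 1 lower, beside 9.65% and 7.98% of all probe sets. Against scrambled 2 were higher and 0 lower, beside 10.3% and 9.78%. Beyond the yardstick was Sdhaf1, also a member, against untreated and Coa6, by 0.91, against scrambled. Of all probe sets, 8.94% and 11.1% were beyond it in these comparisons. Coa6, which helps to deliver copper to complex IV, read 2814 (antisense), against 1499 (scrambled) and 2178 (untreated), and Hccs, which attaches heme to cytochrome c, read 1133 (antisense), against 869 (scrambled) and 717 (untreated). Cox20, an assembly factor of complex IV, read 908 (antisense), against 1141 (scrambled) and 1507 (untreated), in a family probe set. Cox17, a copper chaperone of complex IV, read 1853 (antisense), against 1102 (scrambled) and 2291 (untreated), with the scrambled array lowest by -1.06 against untreated, beyond its yardstick of 0.91. It was named after its values were seen.

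In the list of electron entry and coenzyme Q, 11 of 16 genes were measured and 9 passed. Their median was -0.17 against untreated and -0.11 against scrambled. Of these 3 were at least 1.5-fold lower against untreated and 0 higher, beside 7.98% and 9.65% of all probe sets. Against scrambled 2 were lower and 1 was higher, beside 9.78% and 10.3%. None of the 9 was beyond the yardstick on the array labelled antisense against untreated or scrambled, where 8.94% and 11.1% of all were. Gpd2, which feeds electrons from glycerol phosphate, read 1189 (antisense), against 1286 (scrambled) and 2058 (untreated), in a family probe set. Coq3 read 640.3 (antisense), against 1119 (scrambled) and 963 (untreated), and Coq4 read 1155 (antisense), against 674 (scrambled) and 1065 (untreated). The list of carriers, porins and uncoupling held 15 symbols, with Atpif1 listed also as Atp5if1. Of these, 10 were measured and 8 passed, with medians of -0.05 and -0.04. Beyond the yardstick were 3 of these 8 against untreated and 0 against scrambled, where 8.94% and 11.1% of all probe sets were. Between scrambled and untreated 2 of them were, Ckmt2 and Slc25a3, beside 4.02% of all. Slc25a4, which exchanges ATP for ADP across the inner membrane, read 8923 (antisense), against 10584 (scrambled) and 12379 (untreated), and -0.47 against untreated was beyond the yardstick of 0.35. Ckmt2, a mitochondrial creatine kinase, read 2093 and 1891 with the oligonucleotides, antisense and scrambled, against 779.8 on the untreated array. It was read by a family probe set, 1 of 3 probe sets of this gene. Atpif1, an inhibitor of ATP synthase, read 9809.6 (antisense), against 10049 (scrambled) and 12214 (untreated). Slc25a3, the phosphate carrier, lay above the floor only on the untreated array, at 2197.

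Among regulators of mitochondrial biogenesis, 16 of 20 genes were measured and 12 passed, and Nrf1 was not among those measured. The medians of the 12 were 0.15 against untreated and 0.16 against scrambled. None of the 12 was beyond the yardstick in any comparison. Of all probe sets, 8.94% were for antisense against untreated, 11.1% for antisense against scrambled and 4.02% for scrambled against untreated. With so few genes, the absence of any lies near these shares. Tfb2m, a mitochondrial transcription factor, read 1117 (antisense), against 699 (scrambled) and 859.9 (untreated), Sp1 read 5083 (antisense), against 3844 (scrambled) and 3513 (untreated), and Yy1 read 1080.4 (antisense), against 1560.0 (scrambled) and 1416 (untreated). Gabpa, the DNA-binding subunit of Gabp, read 1228 (antisense), against 944 (scrambled) and 1301 (untreated), and Esrra read 1902 (antisense), against 2341 (scrambled) and 1749.8 (untreated). Ppargc1a, a coactivator of these factors, and Tfam, which packs mitochondrial DNA, did not exceed the floor on any array. None of the 13 genes that mitochondrial DNA encodes had a probe set with its symbol, so subunits of both origins could not be set side by side.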

How the data were processed

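The authors deposited 1 table of linear intensity values of 12654 probe sets on each of 3 arrays (Affymetrix), 66 of them controls. The values show a trimmed mean of 1500 on each array, set before deposit; no source used here names the software. Between 24.8% and 27.9% of deposited intensity values are at or below 0, and the number of arrays limits precision. Here each array was scaled to a common mean with 2% trimmed from each end over the 12588 other probe sets. The floor was 2 robust standard deviations of the values below 0 (595.9); log2 followed, and probe sets with any value above the floor were kept (6127). Symbols came from GEO's platform annotation; all 97 member identifiers matched RefSeq, with the same symbols. Counting was tested on simulated data. With 1 array per group no test was run. Named were members at least 1.5-fold apart and above the floor on the 3 arrays, the 3 highest and 3 lowest of each complex, fixed core genes, genes with several probe sets, members at the floor, and up to 3 genes of each other list; other genes named were chosen after their values were seen. Members, lists, floor and rules were chosen with earlier results of these data known. The tools were Python 3.11.15, pandas 2.3.3, scipy 1.17.1 and matplotlib 3.10.9. Alternatives changed the scaling, floor, filter, probe sets and symbols.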

Additional observations from a re-analysis of the deposited data

How the results depend on the processing

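Results were recomputed under 10 alternatives: 220 values for the whole set and the complexes moved little, 40 moved further. Counts within 1.5-fold were taken as moved little. So were medians that shifted by less than the robust standard deviation of scrambled minus untreated at like level, 0.16 to 0.19. Most medians were smaller, so some changed sign and still counted so. For complex II, antisense minus untreated went from 0.14 to -0.02 with the floor at 1 robust standard deviation. For complex III, antisense minus scrambled went from -0.02 to 0.03 with quantile normalization. For 13 members beyond the yardstick or at least 1.5-fold apart above the floor, the same alternatives were run after seeing the data, and 1 called difference changed sign: Ndufa5, antisense minus untreated, was 0.22 with scaling to spike-in controls. Differences that were not called also took another sign with that scaling. For antisense minus untreated these were Ndufb3 (0.45), Atp5l (0.54), Atp5pb (0.35), Atp5g2 (0.53) and Ndufa4l2 (0.32). Ndufa5 did so for antisense minus scrambled (0.22), and Ndufa5 (0.0029) and Uqcrq (0.096) for scrambled minus untreated. Scaling to the median of values above the floor also gave Uqcrq another sign there, at 0.0093. In the reported setting, 3, 7 and 5 members were at least 1.5-fold apart either way for antisense minus untreated, antisense minus scrambled and scrambled minus untreated. Scaling to spike-in controls gave 18 of the 40. For antisense minus untreated, 3 members were then at least 2-fold and 44 at least 1.5-fold apart, with medians of 0.64, 0.77, 0.69, 0.65 and 0.59 for complexes I to V and 0.63 for all members. For antisense minus scrambled, 6 and 38 were, with medians of 0.57, 0.64, 0.49, 0.34, 0.75 and 0.61, and the antisense array was highest for 68 and lowest for 1. With the floor at 1 robust standard deviation, antisense minus untreated had 2 members at 2-fold and 6 at 1.5-fold, antisense minus scrambled 11 at 1.5-fold and scrambled minus untreated 8. At 3, antisense minus untreated had 0 and 1, and antisense minus scrambled 1 and 4. Over probe sets above the floor on the 3 arrays, the 1.5-fold counts were 1, 4 and 3, with 1 at 2-fold for antisense minus scrambled. Without suffixed probe sets they were 1, 4 and 2, with 0 at 2-fold for antisense minus scrambled and 1 for scrambled minus untreated, and the antisense array was highest for 20 and lowest for 15. With 1 probe set per gene, the 1.5-fold counts were 1 for antisense minus untreated and 3 for scrambled minus untreated, with 1 at 2-fold for antisense minus scrambled. The causes were not tested, beyond that some settings test fewer probe sets. Medians by role in a complex were added after seeing the data. No paired analysis was possible because each group is 1 array, and for the same reason no array could be left out. Where intensity is 1000 a difference must exceed 2.28-fold to pass the yardstick, and 25 member probe sets give no level.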
